A study of Homo sapiens with 4 samples.

Results

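The 35 genes described here encode enzymes that attach acyl groups to proteins (writers), enzymes that remove them (erasers) and bromodomain proteins that bind acetylated lysine (readers). They were chosen by name from a list of known lysine acetyltransferases, N-terminal acetyltransferase subunits, deacetylases, sirtuins and BET proteins, and all 35 were found among the 14431 genes of the deposited table. There were 16 writers, 17 erasers and 2 readers. Their RNA was measured in HGC27, a human gastric cancer cell line, in 2 control libraries and in 2 libraries of cells transfected with small interfering RNA against AARS1 (siAARS1). The genotype label was WT for the controls, with no word on the control RNA they received, and AARS1 knockdown for the others. All 4 samples were kept in glucose-free DMEM, with serum and antibiotics, to which 25 mM lactate had been added. Per the labels the lactate was given for 24 h. The text of the study states another duration, so the time is uncertain. No library without lactate was compared, 1 cell line was used, and the labels do not say whether the replicates were separate cultures, so p-values measure the spread between these libraries, which may be technical.

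Lysine acetyltransferases move an acetyl group from acetyl-CoA to lysine side chains of histones and other proteins, which neutralises the charge of the lysine and creates a docking site for bromodomains. Zinc-dependent deacetylases (HDACs) and the NAD-dependent sirtuins take the group off again. Some of the same enzymes also handle longer or charged acyl groups, lactyl among them: p300 has been described as a lactyltransferase, and class I HDACs and several sirtuins as delactylases. AARS1, the cytosolic alanyl-tRNA synthetase, is the enzyme the study follows as a lactyltransferase that uses lactate and ATP, and SIRT1 is the eraser it follows. The study reports that knockdown of p300 changed protein lactylation only marginally. Of the sirtuins overexpressed there, SIRT1 alone substantially lowered the lactylation of YAP. The comparison addressed here is which of the other writers, erasers and readers differed in RNA when AARS1 was knocked down under lactate.

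Each library held between 30653210 and 33522573 reads of listed genes, and a single read was worth 0.0293 to 0.0324 CPM (read counts scaled to library size). AARS1, listed as AARS (ENSG00000090861, chr16:70252295-70289543, GRCh38), was at 428 and 417 CPM in control cells and at 292 and 298 CPM after siAARS1. Both siAARS1 libraries were below both controls, at 69.7% of the control mean, so the knockdown was partial at the RNA level (log2 fold change -0.52, SE 0.036, limma adjusted p = 2.52e-11). Of the markers examined, VIM was at 4600 to 5131 CPM in all libraries, whereas 2 of 5 epithelial markers (KRT8 and CDH1), 0 of 4 gastric mucosa markers, 0 of 3 leukocyte markers and 0 of 2 endothelial markers were among the genes listed. All 3 fibroblast markers (COL1A1, COL1A2 and DCN) were listed. Some of these markers moved with the knockdown: KRT8 had 24.8 and 25.2 CPM in control cells and 6.61 and 5.08 CPM in siAARS1 cells, COL1A1 had 2320 and 2399 against 1644 and 1541 CPM, COL1A2 had 128 and 131 against 60.7 and 61.9 CPM, DCN had 239 and 250 against 258 and 270 CPM, and the mesenchymal marker ZEB1 had 6.16 and 6.84 against 50.03 and 52.3 CPM. Their part in the changes of the members was not tested. The label of a gastric cancer cell therefore rests on the submitters' description and not on gastric markers in the table. In bulk RNA, fewer cells with a transcript and less of it per cell cannot be told apart.

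Writers were mostly higher in the siAARS1 libraries and erasers mostly lower, although a correction for transcript GC content and length left the erasers split, with 7 higher and 6 lower. Among the 16 writers, 11 rose, 2 fell and 3 did not pass the test, with a median log2 fold change of 0.60. These writers include 5 N-terminal acetyltransferase subunits, of which 4 rose and 1 fell, with a median of 1.53. Among the 17 erasers, 3 rose, 10 fell and 4 did not pass, with a median of -0.30. Both readers fell. Fold changes are differences of log2(CPM + 1), siAARS1 minus control, tested with limma and adjusted over all 14199 genes tested, and a gene was called at an adjusted p under 0.05.

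The knockdown libraries differed from the controls across the transcriptome, so these counts have to be read against a high background. Of all genes tested, 70.7% were called, 32.6% as higher and 38.0% as lower, with a median log2 fold change of -0.05. Of the 35 members, 28 were called, 14 in each direction, with a median of 0.00. The siAARS1 libraries lay entirely above the controls or entirely below them for 15 and 14 members, and for 85.1% of all genes. A rise of at least 2-fold on this scale was found for 7 members (NAA15, KAT6B, NAA16, NAA25, HAT1, SIRT1 and KAT6A) and for 10.6% of all genes, and no member fell by as much. The share of all genes with a fall of that size was not recorded, so the lack of such falls among members has no background to be read against. The scaling of the libraries also matters: dividing each library by its median gene moved the median of all genes to -0.27, and then 10 writers rose and 5 fell, while 3 erasers rose and 14 fell. Of the 14206 genes tested under that scaling, 3338 were called higher and 8077 lower, so most genes called were lower there.

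**Figure D1:**
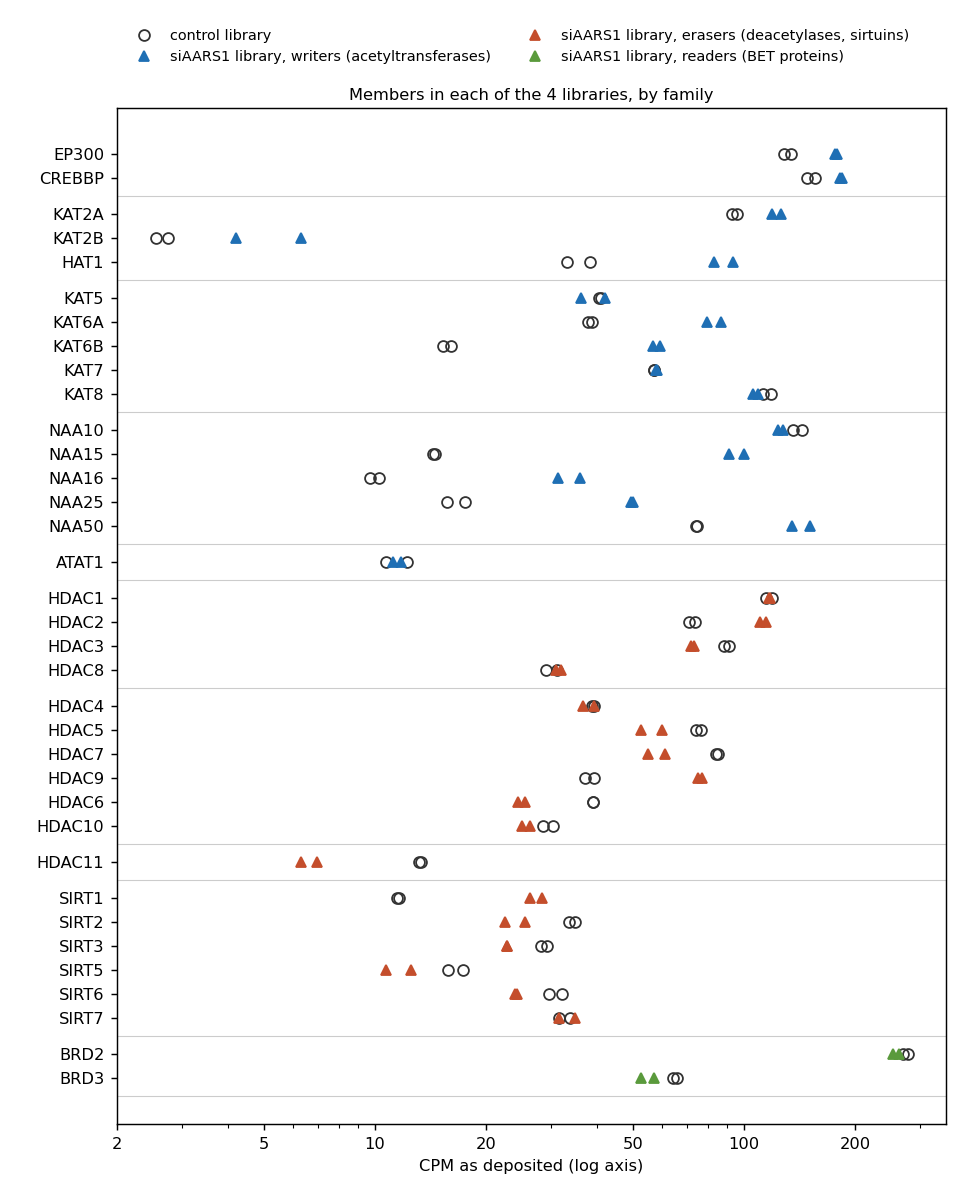
CPM of each of the 35 genes (rows, grouped by family) in each library, on a log axis. Open circles are the 2 control libraries, and triangles are the 2 siAARS1 libraries, coloured blue for writers, red for erasers and green for readers. The triangles lie to the right of the circles for NAA15, KAT6B and HAT1 and to the left for HDAC11, HDAC6 and SIRT5, and they overlap the circles for HDAC1 and ATAT1.

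The p300/CBP pair consists of large coactivators that acetylate histone H3 and H4 and many transcription factors. EP300 (ENSG00000100393, chr22:41091786-41180079), which encodes p300, had 128 and 133 CPM in control cells and 176 and 179 CPM in siAARS1 cells. The groups did not overlap, and the rise was 1.36-fold (log2 fold change 0.44, SE 0.040, adjusted p = 3.29e-09). CREBBP, which encodes CBP, rose from 152 ± 5.56 to 183 ± 1.29 CPM (mean ± SD, n = 2; log2 fold change 0.27). The direction of this pair depended on how base composition was treated. EP300 stood at 0.56 after a smooth fit of each library's deviations on transcript GC content and length had been subtracted, and at -0.14 when the fit used coding sequence composition instead. CREBBP stood at 0.49 and -0.03 under these corrections, and at 0.04 under median scaling.

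The 3 lysine acetyltransferases HAT1, KAT2A and KAT2B rose. HAT1 (ENSG00000128708, chr2:171922448-171983682), the type B enzyme that acetylates newly made histone H4 before it is packed into chromatin, had 33.02 and 38.3 CPM in control cells and 82.8 and 93.4 CPM in siAARS1 cells. This was the largest rise of the 3, at 2.47-fold (log2 fold change 1.28, SE 0.066, adjusted p = 1.42e-13), and it stood at 0.76 and 0.18 under the GC content and length correction and the coding sequence correction. KAT2A and KAT2B encode GCN5 and PCAF, the alternative catalytic subunits of the SAGA and ATAC coactivator complexes. KAT2A rose from 94.3 ± 2.25 to 122 ± 4.79 CPM (log2 fold change 0.37; 0.69 and 0.57 under the corrections), and KAT2B rose from 2.65 ± 0.135 to 5.25 ± 1.47 CPM (log2 fold change 0.76, SE 0.15; 0.40 and 0.44). KAT2A was 1 of 2 members with a transcript GC content over 55% that rose.

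The MYST family was divided. KAT6B (ENSG00000156650, chr10:74824927-75032624), the catalytic subunit of a complex that acetylates histone H3 at lysines of its tail, had 15.3 and 16.0 CPM in control cells and 59.3 and 56.7 CPM in siAARS1 cells. The groups were far apart, and the rise was 3.70-fold (log2 fold change 1.82, SE 0.065, adjusted p = 2.29e-16; 1.34 and 1.20 under the 2 corrections). Its paralog KAT6A rose from 38.2 ± 0.719 to 82.8 ± 5.17 CPM (log2 fold change 1.10; 0.57 and 0.52 under the corrections). KAT8 (ENSG00000103510, chr16:31115754-31131393), the catalytic subunit of the MSL and NSL complexes that acetylate histone H4, had 118 and 112 CPM in control cells and 106 and 109 CPM in siAARS1 cells. These groups were close together, and its fall of 0.10 on the log2 scale (SE 0.044, adjusted p = 0.0442) did not pass with edgeR on the recovered reads (adjusted p = 0.211) and changed sign under both corrections. KAT5, which encodes TIP60, and KAT7, which encodes HBO1, did not pass, with log2 fold changes of -0.06 and 0.03 and 95% intervals of -0.20 to 0.08 and -0.08 to 0.13. Both were called in other settings. KAT5 was higher under the corrections (0.24 and 0.22) and lower under median scaling (-0.29), and KAT7 was lower under the corrections (-0.41 and -0.27) and under median scaling (-0.20).

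N-terminal acetyltransferases act on the first residue of proteins while they are being made, and their subunits held the largest rise of the 35 genes in the CPM as deposited. NAA15 (ENSG00000164134, chr4:139301455-139420033), the subunit that anchors the NatA enzyme to the ribosome, had 14.4 and 14.6 CPM in control cells and 91.1 and 99.96 CPM in siAARS1 cells. This was a 6.60-fold rise with both siAARS1 libraries far above both controls (log2 fold change 2.64, SE 0.062, adjusted p = 2.60e-19), and the value was 1.35 and 1.32 under the 2 corrections. NAA16, the alternative anchor of NatA, rose 3.37-fold (log2 fold change 1.65; 0.71 and 0.33 under the corrections), and NAA25, the large subunit of NatB, rose 2.99-fold (1.53; 0.41 and 0.61).

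NAA10, the catalytic subunit that both anchors hold, moved the other way. NAA10 (ENSG00000102030, chrX:153929242-153935223) had 144 and 135 CPM in control cells and 128 and 123 CPM in siAARS1 cells. The groups did not overlap, but the change was small (log2 fold change -0.15, SE 0.043, adjusted p = 0.00371), and it was 0.16 and 0.27 under the corrections. NAA50 (ENSG00000121579, chr3:113716460-113746300), the enzyme of NatE that binds the NatA complex, had 74.7 and 74.0 CPM in control cells and 135 and 151 CPM in siAARS1 cells. It rose 1.92-fold (log2 fold change 0.93, SE 0.050, adjusted p = 2.90e-13), although the GC content and length correction gave -0.26 and the coding sequence correction 0.49. The ratio of NAA15 to NAA10 within a library went from 0.09996 and 0.108 in the controls to 0.714 and 0.810. CPM is not divided by transcript length, so such a ratio shows a shift between libraries and not the proportion of the subunits.

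ATAT1 (ENSG00000137343, chr6:30626842-30646823), the enzyme that acetylates alpha-tubulin inside microtubules, had 12.2 and 10.7 CPM in control cells and 11.8 and 11.2 CPM in siAARS1 cells. The groups overlapped, and the log2 fold change was 0.00 with a 95% interval of -0.20 to 0.21. ATAT1 was called higher under the 2 corrections (0.28 and 0.25) and lower under median scaling (-0.21, adjusted p = 0.0473).

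The class I deacetylases are nuclear enzymes that work inside corepressor complexes, HDAC1 and HDAC2 in the SIN3, NuRD and CoREST complexes and HDAC3 with NCOR1. HDAC2 (ENSG00000196591, chr6:113933028-114011308) had 70.9 and 73.6 CPM in control cells and 111 and 114 CPM in siAARS1 cells. It rose 1.56-fold without overlap (log2 fold change 0.63, SE 0.045, adjusted p = 5.45e-11). That direction turned under both corrections, to -0.75 and -0.61. HDAC3 (ENSG00000171720, chr5:141620876-141636870) had 90.9 and 88.4 CPM in control cells and 73.2 and 71.6 CPM in siAARS1 cells, a fall without overlap (log2 fold change -0.30, SE 0.046, adjusted p = 5.14e-06) that was -0.09 under the GC content and length correction (adjusted p = 0.0534). Under the coding sequence correction HDAC3 was called lower (-0.11, adjusted p = 0.012). HDAC1 and HDAC8 did not pass, with log2 fold changes of -0.00 and 0.06 and 95% intervals of -0.09 to 0.09 and -0.08 to 0.19. Both were called higher under the GC content and length correction (0.11 and 0.19) and lower under median scaling (-0.24 and -0.17). NCOR1, the corepressor that activates HDAC3, was singled out after its value was seen. It rose by 1.31 on the log2 scale (0.68 and 0.44 under the corrections), and the ratio of NCOR1 to HDAC3 within a library went from 0.828 and 0.891 in the controls to 2.63 and 2.70.

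Class II holds HDAC4, HDAC5, HDAC7 and HDAC9, which shuttle between nucleus and cytoplasm and restrain MEF2 transcription factors, and the cytoplasmic enzymes HDAC6 and HDAC10. HDAC9 (ENSG00000048052, chr7:18086949-19002416) was the only one of the 6 called as higher, with 37.0 and 39.1 CPM in control cells and 75.0 and 76.9 CPM in siAARS1 cells. Its level was 1.997-fold that of the controls (log2 fold change 0.98, SE 0.053, adjusted p = 3.73e-13), and it stood at 1.10 and 0.63 under the corrections. HDAC7 (ENSG00000061273, chr12:47782722-47833132) had 84.0 and 84.8 CPM in control cells and 60.9 and 55.02 CPM in siAARS1 cells. It fell without overlap (log2 fold change -0.54, SE 0.052, adjusted p = 8.03e-09; -0.19 and -0.40 under the corrections).

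HDAC5 (ENSG00000108840, chr17:44076746-44123702) had 76.4 and 73.9 CPM in control cells and 59.7 and 52.6 CPM in siAARS1 cells. It fell as well (log2 fold change -0.42, SE 0.056, adjusted p = 1.09e-06), although the GC content and length correction left -0.09 (adjusted p = 0.113). The coding sequence correction kept the call (-0.30, adjusted p = 1.41e-06). HDAC6 (ENSG00000094631, chrX:48801377-48824982), which deacetylates tubulin and carries a ubiquitin-binding domain, had 38.9 and 39.0 CPM in control cells and 25.5 and 24.4 CPM in siAARS1 cells. It fell the most of the class in the CPM as deposited (log2 fold change -0.63, SE 0.063, adjusted p = 1.43e-08), and it was -0.33 and -0.67 under the corrections. ATAT1, which acts on tubulin as well, did not pass the test in the CPM as deposited. HDAC10, a polyamine deacetylase, was called with a log2 fold change of -0.19, but 55.8% of its annotated exon bases are shared with MAPK12 on the same strand, so its reads are uncertain. It was called higher under the GC content and length correction (0.17, adjusted p = 0.0218), stood at 0.09 under the coding sequence correction, and lost its call without control replicate 1 or without siAARS1 replicate 2. HDAC4 did not pass (-0.04, 95% interval -0.17 to 0.08), but was called higher under the GC content and length correction (0.18) and lower under median scaling (-0.27).

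HDAC11 (ENSG00000163517, chr3:13479724-13506424), the single class IV deacetylase, which also removes long fatty acyl groups, showed the largest fall of the 35 genes in the CPM as deposited, although not under the corrections. It had 13.2 and 13.3 CPM in control cells and 6.96 and 6.29 CPM in siAARS1 cells. Both siAARS1 libraries were near 50.1% of the control mean, the groups did not overlap, and the log2 fold change was -0.90 (SE 0.10, adjusted p = 7.75e-08; -0.57 and -0.50 under the corrections).

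Of the 6 sirtuins, SIRT1 rose, SIRT2, SIRT3, SIRT5 and SIRT6 fell, and SIRT7 did not pass. SIRT1 (ENSG00000096717, chr10:67884669-67918390), the nuclear deacetylase of p53, FOXO factors and other regulators, had 11.5 and 11.6 CPM in control cells and 26.4 and 28.3 CPM in siAARS1 cells. The groups were well separated, with a 2.37-fold rise (log2 fold change 1.17, SE 0.080, adjusted p = 2.06e-11) that was 0.40 and 0.58 under the corrections. SIRT2 (ENSG00000068903, chr19:38878555-38899862), a mainly cytoplasmic deacetylase, had 34.9 and 33.5 CPM in control cells and 25.5 and 22.5 CPM in siAARS1 cells. It fell by 0.49 on the log2 scale without overlap (SE 0.071, adjusted p = 2.36e-06), and the call was lost under the coding sequence correction (-0.11, adjusted p = 0.108). The GC content and length correction kept the call (-0.19, adjusted p = 0.0145).

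SIRT3 and SIRT5 act in mitochondria. SIRT5, which removes succinyl, malonyl and glutaryl groups, fell from 16.6 ± 1.06 to 11.6 ± 1.24 CPM (log2 fold change -0.48, SE 0.094, adjusted p = 0.00012), and this was -0.63 and -0.30 under the corrections. SIRT3, the main mitochondrial deacetylase, and SIRT6, a chromatin-bound one, fell by 0.32 and 0.34 on the log2 scale. Under the corrections SIRT3 stood at -0.03 and 0.07 and SIRT6 at -0.00 and 0.08. SIRT7, a nucleolar enzyme, was at 0.02 (95% interval -0.12 to 0.16), and at 0.35 and 0.46 under the corrections.

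BRD2 and BRD3 are BET proteins, whose paired bromodomains bind acetylated histones at active genes. BRD3 (ENSG00000169925, chr9:134030305-134068535) had 65.8 and 64.2 CPM in control cells and 56.8 and 52.6 CPM in siAARS1 cells. It fell without overlap (log2 fold change -0.25, SE 0.053, adjusted p = 0.000298), and 18.6% of its annotated exon bases are shared with LINC00094 on the other strand. BRD2 went from 274 ± 6.01 to 257 ± 7.10 CPM (log2 fold change -0.09, adjusted p = 0.0429). Neither was called as lower under the GC content and length correction (-0.08 for BRD3 and 0.07 for BRD2), and BRD2 was not called with edgeR (adjusted p = 0.261). Under the coding sequence correction BRD2 was called lower (-0.27, adjusted p = 1.23e-08) and BRD3 was not called (-0.02, adjusted p = 0.636).

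**Figure D2:**
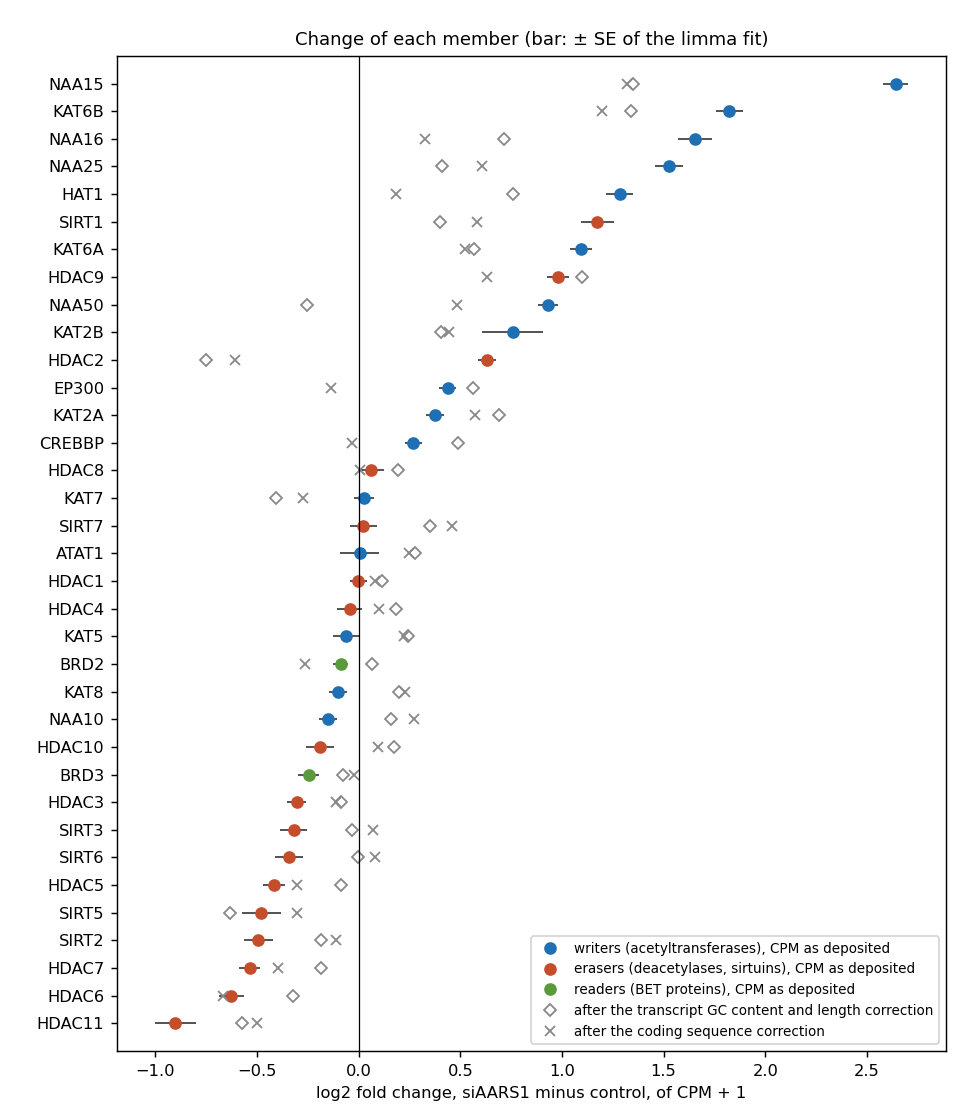
Change of each of the 35 genes as the difference of log2(CPM + 1), siAARS1 minus control (x axis), in order of size, with bars of ± 1 SE. Open diamonds show the value after the transcript GC content and length correction, and crosses show it after the coding sequence correction. The filled points run from -0.90 for HDAC11 to 2.64 for NAA15, and the diamond and cross of HDAC2 lie at -0.75 and -0.61, on the other side of 0 from its point at 0.63.

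As a description of the whole set, the summed CPM of the 16 writers was 948 in each control library and 1361 and 1399 in the siAARS1 libraries. The summed CPM of the 17 erasers was 782 and 781 in the controls and 772 and 750 in the siAARS1 libraries. The ratio of the sums was 1.21 in both controls and 1.76 and 1.87 in the siAARS1 libraries. These sums are at the deposited CPM scaling, and under median scaling 14 of the 17 erasers were called lower, as were 8077 of the 14206 genes tested. The ratio does not depend on that scaling, but it was not corrected for base composition, and median transcript GC content was 45.7% for writers and 57.5% for erasers. The writers also include 5 N-terminal acetyltransferase subunits, whose enzymes act on the first residue of proteins. The ratio is therefore no measure of a balance on lysine. The ratio of EP300 to SIRT1 went the other way, from 11.2 and 11.5 in the controls to 6.69 and 6.31. Within families, the ratio of HDAC9 to HDAC7 went from 0.440 and 0.461 to 1.23 and 1.40, and that of SIRT1 to SIRT2 from 0.329 and 0.347 to 1.033 and 1.26.

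Base composition moved with the direction of change. Across the 35 members the log2 fold change had a Spearman rho of -0.75 with the GC content of the annotated transcript, against -0.65 across the 13819 genes with a GC value, and -0.82 and -0.52 among writers and erasers. These points share the same 4 libraries and are not independent. All 8 members with at most 45% GC rose: HAT1, NAA15, HDAC2, NAA50, NAA16, NAA25, SIRT1 and KAT2B. In the same range 71.4% of all genes were called higher and 7.85% lower. Of the 16 members above 55% GC, 2 rose (KAT2A and CREBBP), 10 fell and 4 did not pass, where 5.10% of all genes were called higher and 65.8% lower. Between these limits 4 rose, 4 fell and 3 did not pass.

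The median transcript GC content was 45.7% for writers and 57.5% for erasers, so the 2 sides differed in composition before any comparison of their RNA. After the GC content and length correction, 14 writers were called higher and 2 lower, with a median of 0.45, whereas erasers were split into 7 higher and 6 lower, with a median of -0.03. Of the 13819 genes tested with this correction, 4462 were called higher and 4591 lower. After the coding sequence correction, chosen after the data were seen, 13 writers were higher and 2 lower, and 4 erasers were higher and 7 lower. Of the 12259 genes tested with that correction, 4358 were called higher and 4360 lower. Both corrections also take out any change of RNA that follows these properties for another reason, and they rest on 1 annotated transcript per gene, which for HDAC2 had 9874 bases and for HDAC9 held the 3210 bases of the coding sequence alone. A total of 14 members kept their call and direction in every setting that tested them. The share of all genes that did the same was not counted, so this number has no background to be read against. KAT2B, which is among them, was not tested at the minimum of 5 CPM. The 10 that rose in all were KAT2A, KAT2B, HAT1, KAT6A, KAT6B, NAA15, NAA16, NAA25, HDAC9 and SIRT1, and the 4 that fell in all were HDAC7, HDAC6, HDAC11 and SIRT5.

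**Figure D3:**
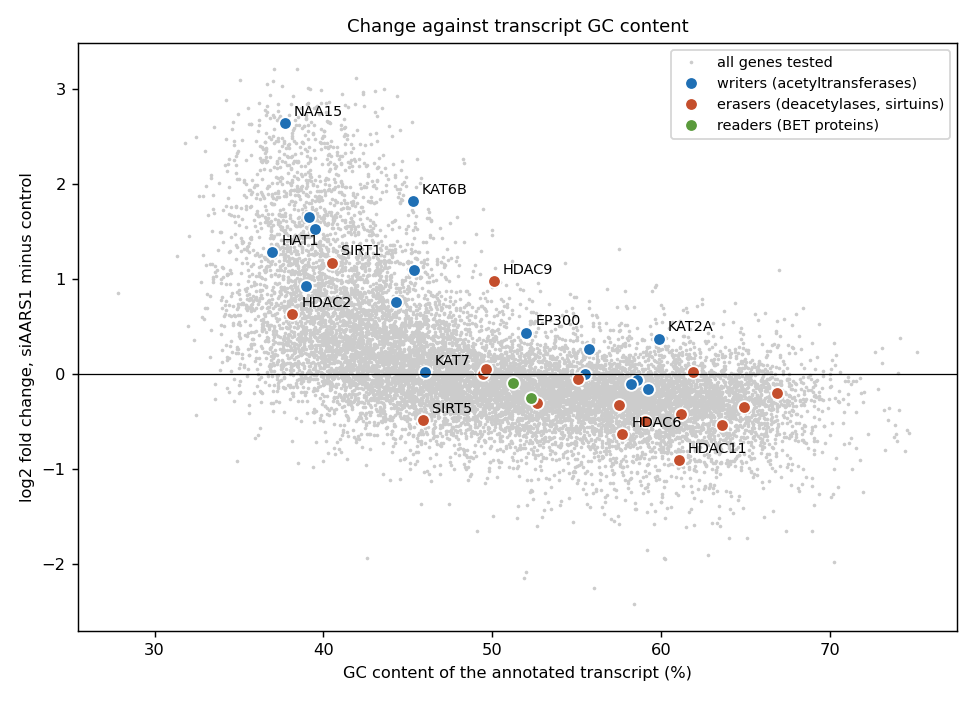
Log2 fold change (y axis) against the GC content of the annotated transcript in percent (x axis) for all genes tested (grey) and for writers (blue), erasers (red) and readers (green). Members to the left of 45% all lie above 0, as most grey points do, and HDAC9, KAT6B and KAT2A lie above most genes of their own GC content.

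Of 19 pairs of related members, 5 had both called in opposite directions: NAA10 and NAA50, HDAC2 and HDAC3, HDAC5 and HDAC9, HDAC7 and HDAC9, and SIRT1 and SIRT2. HDAC1 and HDAC2 are the closest pair, with 86.5% identical residues over their aligned translated coding sequences. HDAC2 exceeded HDAC1 by 0.63 on the log2 scale (SE 0.062), and it was below HDAC1 by 0.87 and 0.69 under the corrections. At the 416 residues they share, 57.5% of the codons differed, and 60.3% of the HDAC1 codons but 30.3% of the HDAC2 codons ended in G or C. The following stretches encode 30 identical residues in both genes and show how the RNA of the pair can differ. Among stretches of 30 codons inside 1 exon, the 1 with the most identical residues was taken. Ties went to the largest difference in GC content, so the stretches here and below can differ more than the whole coding sequences do. Letters in capitals are the G or C at the final base of a codon, and all stretches are read 5′ to 3′ on the coding strand of GENCODE v29 transcripts on GRCh38. The HDAC1 stretch lies in exon 6 at chr1:32327540-32327629 on the + strand and the HDAC2 stretch in exon 6 at chr6:113953325-113953414 on the - strand.
HDAC1: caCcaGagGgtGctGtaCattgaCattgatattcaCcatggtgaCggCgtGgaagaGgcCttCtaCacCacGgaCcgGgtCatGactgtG
HDAC2: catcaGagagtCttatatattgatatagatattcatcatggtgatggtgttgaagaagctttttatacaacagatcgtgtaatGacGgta

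In these 90 bases HDAC1 has 22 codons that end in G or C and HDAC2 has 4, and 23 bases differ. The HDAC7 and HDAC9 genes, which were called in opposite directions under both corrections too, are shown for the same reason, over a stretch with 28 of 30 residues identical. HDAC9 was higher than HDAC7 by 1.52 on the log2 scale (SE 0.074), and by 1.29 and 1.029 under the corrections. The HDAC7 stretch lies in exon 23 at chr12:47785755-47785844 on the - strand and the HDAC9 stretch in exon 22 at chr7:18935850-18935939 on the + strand.
HDAC7: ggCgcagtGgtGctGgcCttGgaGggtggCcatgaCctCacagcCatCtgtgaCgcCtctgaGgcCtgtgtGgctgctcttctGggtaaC
HDAC9: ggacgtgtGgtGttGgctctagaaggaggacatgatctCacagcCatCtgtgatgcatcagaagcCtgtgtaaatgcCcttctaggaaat

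Here 19 codons of HDAC7 and 8 of HDAC9 end in G or C, and over all residues they share the figures were 72.7% and 46.6%. EP300 and CREBBP both rose and are shown as a pair that moved together, over a stretch with all 30 residues identical. Their log2 fold changes differed by 0.17 (SE 0.057), EP300 being higher. The EP300 stretch lies in exon 31 at chr22:41176932-41177021 on the + strand and the CREBBP stretch in exon 31 at chr16:3729626-3729715 on the - strand.
EP300: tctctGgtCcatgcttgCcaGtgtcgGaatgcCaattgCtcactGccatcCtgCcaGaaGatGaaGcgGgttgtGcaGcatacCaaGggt
CREBBP: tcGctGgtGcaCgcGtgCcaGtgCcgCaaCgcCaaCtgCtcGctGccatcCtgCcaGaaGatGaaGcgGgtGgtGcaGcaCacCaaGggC

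In this stretch 19 codons of EP300 and 29 of CREBBP end in G or C, and over all residues they share the figures were 50.8% and 64.1%. NAA15 and NAA16 are the pair with the lowest share of such codons on both sides, 34.8% and 34.7% over the whole coding sequence, and both rose, NAA15 by 0.99 more (SE 0.10). The difference was 0.63 under the GC content and length correction and 0.99 under the coding sequence correction. The NAA15 stretch lies in exon 4 at chr4:139340914-139341003 on the + strand and the NAA16 stretch in exon 4 at chr13:41320669-41320758 on the + strand, with 29 of 30 residues identical.
NAA15: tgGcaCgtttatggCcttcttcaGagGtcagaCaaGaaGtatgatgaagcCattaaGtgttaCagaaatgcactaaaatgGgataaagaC
NAA16: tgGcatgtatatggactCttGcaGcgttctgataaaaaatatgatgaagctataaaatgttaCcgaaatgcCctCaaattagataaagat

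In this stretch 13 codons of NAA15 and 7 of NAA16 end in G or C. For the other pairs called in opposite directions, SIRT1 exceeded SIRT2 by 1.67 (SE 0.11) and NAA50 exceeded NAA10 by 1.08 (SE 0.066). SIRT1 remained above SIRT2 under both corrections, by 0.58 and 0.69. NAA50 was below NAA10 by 0.41 under the GC content and length correction and above it by 0.21 under the coding sequence correction. HDAC2 exceeded HDAC3 by 0.94 (SE 0.065), and it was below HDAC3 by 0.66 and 0.49 under the corrections. KAT6A and KAT6B, with nearly equal shares of codons ending in G or C (50.6% and 49.6%), still differed by 0.73 (SE 0.084), and by 0.77 and 0.67 under the corrections.

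**Figure D4:**
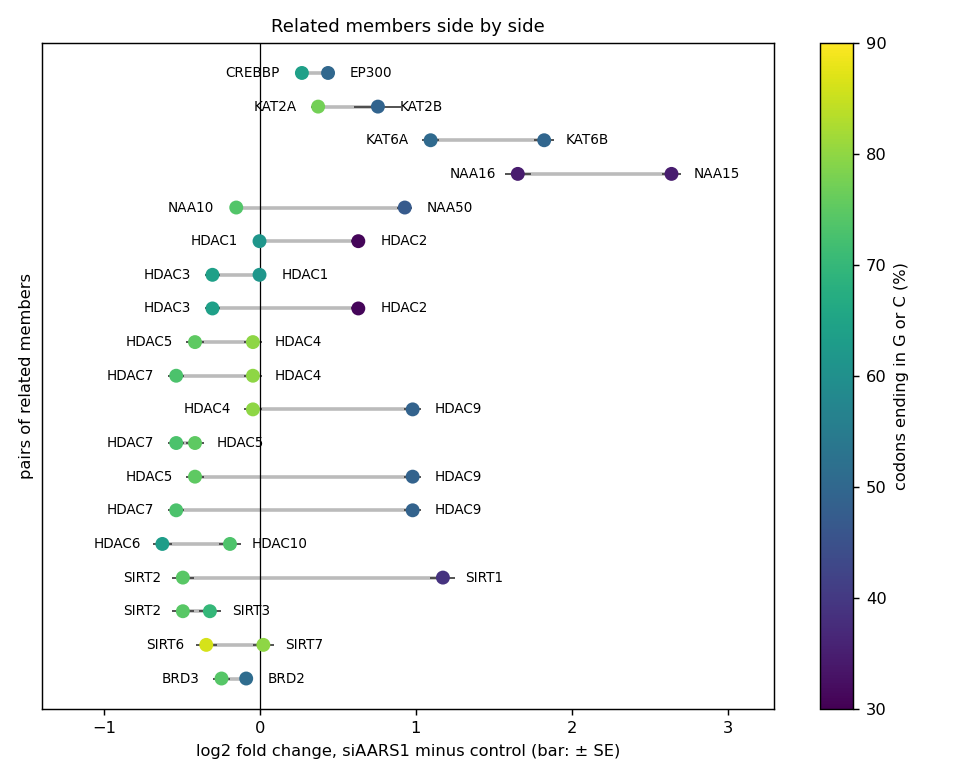
Log2 fold changes of the 19 pairs of related members (x axis, bars ± 1 SE), with each pair joined by a line and each point coloured by the share of its codons that end in G or C. The darker point, with fewer such codons, lies to the right in pairs such as HDAC1 and HDAC2, SIRT1 and SIRT2, and NAA10 and NAA50, while KAT6A and KAT6B differ in change at the same colour. The point with fewer such codons lies to the left in HDAC4 and HDAC5, HDAC4 and HDAC7, HDAC5 and HDAC7, and HDAC6 and HDAC10.

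Because the study concerns YAP and TEAD, the promoter windows of the members were searched on both strands for 1 motif, the core TEAD letters GGAATG. RefSeq promoter windows, from 250 bases before to 50 bases after a gene's start, were at hand for 29 of the 35 members. The letters were found in 4 of them, HDAC8, HDAC4, HDAC9 and HDAC6, and in 14.03% of all 35116 windows or 16.7% of the 27305 genes with a window. Of these 4, HDAC9 rose, HDAC6 fell, and HDAC8 and HDAC4 did not pass.

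Proteins that work with the members were counted from 5 lists. For list counts under median scaling, the background was 3338 genes higher and 8077 lower of 14206 tested. It was 4462 and 4591 of 13819 under the GC content and length correction. Under the coding sequence correction it was 4358 and 4360 of 12259. Of 33 partners of acetyltransferase complexes tested, 21 rose, 8 fell and 4 did not pass, with a median of 0.19 (0.17 under the GC content and length correction). These counts stand beside the 32.6% of all genes called higher and 38.0% called lower. They depended on the scaling, with 9 higher and 13 lower under median scaling and 12 higher under the coding sequence correction, and the falls numbered 4 without control replicate 2 or without siAARS1 replicate 2. ZZZ3, a subunit of the ATAC complex of KAT2A and KAT2B, had 9.12 and 8.10 CPM in control cells and 43.2 and 47.4 CPM in siAARS1 cells (log2 fold change 2.27; 1.36 and 0.94 under the corrections). EPC2 and EPC1, scaffold subunits of the NuA4 complex around KAT5, rose by 1.66 and 1.19 (0.87 and 0.81 for EPC2 and 1.14 and 0.42 for EPC1 under the corrections). The entry named NAA38 (ENSG00000128534, chr7:118184032-118192824, log2 fold change 0.14) was counted among the rises by its symbol alone. Whether it encodes an acetyltransferase subunit was not checked, so its place in this list is uncertain.

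Of 34 partners of deacetylase complexes, 11 rose, 10 fell and 13 did not pass, with a median of -0.01, beside the same all-gene shares. Median scaling gave 7 higher and 22 lower, where 3338 of 14206 genes tested were higher and 8077 lower. The GC content and length correction gave 23 higher, with a median of 0.18, and the coding sequence correction gave 17 higher. The falls numbered 5 without control replicate 2 or without siAARS1 replicate 2. ARID4B, a subunit of the SIN3 complex, had 4.90 and 6.02 CPM in control cells and 28.9 and 29.3 CPM in siAARS1 cells (log2 fold change 2.22; 1.07 and 0.65 under the corrections). Its relative ARID4A rose by 2.06 (0.78 and 0.48). TBL1XR1, which joins HDAC3 to NCOR1, rose by 1.44, a value that was -0.04 under the GC content and length correction and 0.40 under the coding sequence correction.

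Among 16 other acetyltransferases, 10 rose, 3 fell and 3 did not pass, with a median of 0.30 (0.21 under the GC content and length correction). Of all genes tested, 32.6% were called higher and 38.0% lower. Median scaling gave 7 of the list lower and the coding sequence correction 6 lower. CLOCK, the circadian transcription factor with reported acetyltransferase activity, had 6.63 and 5.83 CPM in control cells and 37.7 and 39.6 CPM in siAARS1 cells (log2 fold change 2.46; 1.02 and 1.32 under the corrections). ESCO1 and ESCO2, which acetylate cohesin, rose by 1.98 and 1.56 (0.81 and 0.55 for ESCO1 and 0.62 and 0.31 for ESCO2 under the corrections).

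Other acetyl-lysine readers gave the highest median of the 5 lists, 0.89 (0.41 under the GC content and length correction). Of these 28 genes, 19 were higher, 5 lower and 4 not past the test (10 lower under median scaling), beside 32.6% higher and 38.0% lower over all genes. ATAD2, a bromodomain ATPase, had 219 and 219 CPM in control cells and 1550 and 1630 CPM in siAARS1 cells (log2 fold change 2.85; 1.73 and 1.41 under the corrections). PHIP and BAZ1A, a further pair of bromodomain proteins, rose by 2.82 and 2.58 (1.36 and 1.32 for PHIP and 1.66 and 1.02 for BAZ1A under the corrections). The median transcript GC content of this list was 44.2%, against 49.8% for all genes tested. The difference between this list and the BET pair was not tested.

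Genes that supply acyl-CoA or NAD had a median of -0.12, with 6 of 19 higher, 11 lower and 2 not past the test (3 higher under the coding sequence correction). The shares over all genes were 32.6% higher and 38.0% lower. SUCLA2, a subunit of succinyl-CoA synthetase, had 15.7 and 17.5 CPM in control cells and 50.8 and 53.4 CPM in siAARS1 cells (log2 fold change 1.59; 1.027 and 0.69 under the corrections). ACSS1, the mitochondrial acetyl-CoA synthetase, had 10.6 and 11.7 CPM in control cells and 3.85 and 4.03 CPM in siAARS1 cells, a fall without overlap (log2 fold change -1.30; -1.02 and -1.029 under the corrections). DLD, the dihydrolipoamide dehydrogenase of the pyruvate dehydrogenase complex, rose by 1.27, which was 0.42 and 0.09 under the corrections. A further pair was singled out after its values were seen. ACSS2, the acetyl-CoA synthetase of nucleus and cytosol, fell by 1.06 (-0.84 and -0.95 under the corrections), and NAMPT, the rate-limiting enzyme of NAD salvage, rose by 1.02 but stood at -0.15 and -0.05 under the corrections.

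**Figure D5:**
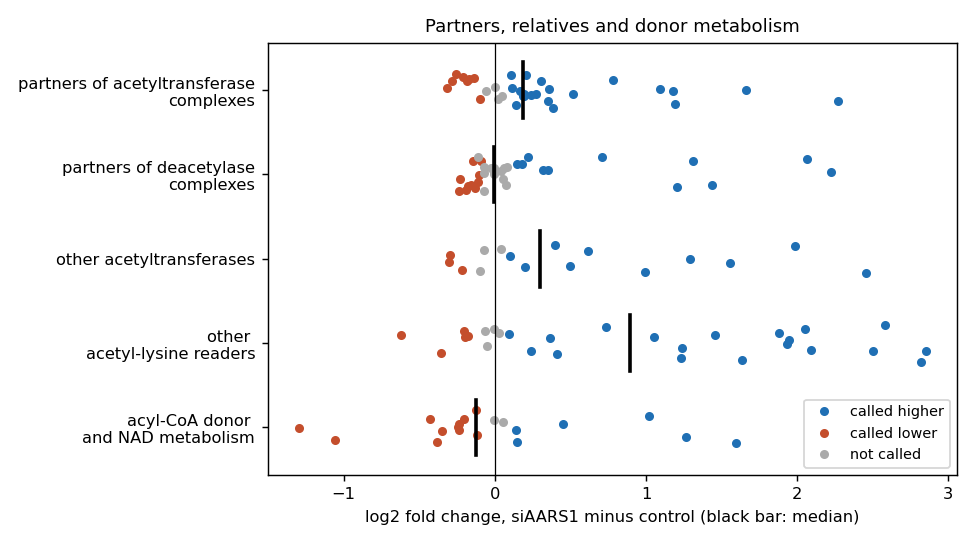
Log2 fold change (x axis) of every tested gene of the 5 lists of partners, relatives and donor metabolism, 1 row per list. Blue points were called higher, red points lower and grey points were not called, and the black bar is the median of the list, from -0.12 for acyl-CoA donor and NAD metabolism to 0.89 for other acetyl-lysine readers.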

How the data were processed

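RNA-Seq libraries of HGC27 cells (2 control, 2 siAARS1) were grouped by their titles. The authors deposited 1 table of CPM values for 14431 genes. The submitters' processing notes name RSEM 1.3.3 and hg38; the aligner, annotation, strand setting and scaling are not given in the sources used here. In every library 100% of the values were whole multiples of 1 read within 0.0006 CPM, which gave 30653210 to 33522573 reads per library. A count of 0 allows up to 3 reads (0.0880 to 0.0971 CPM), for counting error only. The chi-square per gene between replicates was 3.63 and 3.62, so all 4 libraries were kept as separate samples.

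log2(CPM + 1) was tested with limma 3.58.1 (trend, R 4.3.3), two-sided, for the 14199 genes whose mean reached 1 CPM in either group, with Benjamini-Hochberg adjustment over all of them and a threshold of 0.05. This scale understates the change of low genes. Alternatives were a pseudocount of 0.1, no filter, a minimum of 5 CPM, median scaling, quantile normalization, a threshold of 0.01, a replicate block, leaving out each library, edgeR 4.0.16 (9806 genes called, against 10032) and DESeq2 1.42.0 on the recovered reads, and corrections by mgcv 1.9.3 smooths for transcript GC content and length, and for coding GC content, GC at the final codon base and coding length. The last was added after the data were seen. GC values from GENCODE v29 (GRCh38) covered 97.2% of listed genes. The fits were tested on simulated data with 200 changed genes. With 10032 genes called in the real data, that simulation does not show how the fits behave under so broad a change. Translated coding sequences were aligned with Biopython 1.88.

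Members, lists and pairs were chosen with earlier results of these data known. Values in every library are given for AARS1, EP300, SIRT1, the called member of each family with the largest rise and fall, pairs called in opposite directions and families of 1. Each list contributes at most 3 called genes, those that changed most among genes at 5 CPM or more in the higher group. Reads from opposite strands of overlapping genes may not have been told apart: shares of annotated exon bases were 38.6% for KAT5 (RNASEH2C), 16.1% for SIRT5 and, on the same strand, 10.1% for NAA10 (ARHGAP4). How reads that match several genes were counted is not given in the sources used here, so values of close paralogs are uncertain.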

Additional observations from a re-analysis of the deposited data

How the results depend on the processing

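Leaving out each library in turn gave 24 to 28 members called (28 with all), 14 of them higher in each case and 10 to 14 lower; KAT8, NAA10, HDAC10 and BRD2 were the members that lost their call in at least 1 of these fits, and KAT5 gained one (-0.16 without siAARS1 replicate 1). Partners of acetyltransferase complexes called lower numbered 4 to 8 (8 with all, 4 without control replicate 2 or without siAARS1 replicate 2) and partners of deacetylase complexes called lower 5 to 11 (10 with all, 5 without the same libraries). Of the 7 members that did not pass with all libraries, 5 lay on both sides of 0 over these fits: KAT5 at -0.16 to 0.043, ATAT1 at -0.082 to 0.090, HDAC1 at -0.030 to 0.025, HDAC4 at -0.094 to 0.0041 and SIRT7 at -0.051 to 0.095. Median scaling turned HDAC8 (-0.17), KAT7 (-0.20), SIRT7 (-0.21) and ATAT1 (-0.21), and quantile normalization turned KAT7 (-0.080), HDAC8 (-0.14), SIRT7 (-0.17) and ATAT1 (-0.24). Of all calls, 46.2% were higher, against 29.2% under median scaling (3338 higher, 8077 lower), 37.0% under quantile normalization, 50.3% with edgeR and 53.8% with DESeq2. On recovered reads HDAC1 turned to 0.035 (edgeR with TMM) and 0.049 (edgeR with RLE size factors, and DESeq2), and HDAC4 to 0.0063 and 0.0066 with the latter pair.

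Under median scaling, partners of acetyltransferase complexes were 9 higher and 13 lower, partners of deacetylase complexes 7 higher and 22 lower, other readers 10 lower and other acetyltransferases 7 lower; quantile normalization gave 8 and 6 lower for the last pair of lists. Partners of acetyltransferase and deacetylase complexes called lower numbered 5 and 5 at a threshold of 0.01, 5 and 5 with edgeR and RLE, and 2 and 2 with DESeq2, and those of deacetylase complexes 6 with TMM. The GC content and length correction gave 8 members lower, 23 partners of deacetylase complexes higher, 5 partners of acetyltransferase complexes lower and 3 other readers lower. It turned NAA50 (-0.26), KAT7 (-0.41), HDAC2 (-0.75), BRD2 (0.066), HDAC1 (0.11), NAA10 (0.16), HDAC10 (0.17), HDAC4 (0.18), KAT8 (0.20) and KAT5 (0.24). The coding sequence correction turned CREBBP (-0.034), EP300 (-0.14), KAT7 (-0.27), HDAC2 (-0.61), SIRT3 (0.068), SIRT6 (0.080), HDAC1 (0.081), HDAC10 (0.093), HDAC4 (0.10), KAT5 (0.22), KAT8 (0.23) and NAA10 (0.27), and gave 12 and 17 partners of acetyltransferase and deacetylase complexes higher, 3 acyl-CoA and NAD genes higher and 6 other acetyltransferases lower. The cause of these turns was not tested.

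With the replicate number as a block, 4770 genes were higher and 5619 lower, 28 members were called as before, and adding the block to the GC correction gave the fold changes of that correction alone (8 members lower). Across genes, deviations of libraries with the same number had a correlation of 0.11, and the labels do not say that the numbers mark a shared day or culture. KAT2B was left out by the minimum of 5 CPM. With 2 libraries per group the spread rests on few degrees of freedom, borrowed across genes.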
